A study of Mus musculus with 8 samples.

Results

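The 39 genes described here mark Kupffer cells, other macrophages and leukocytes, and they were followed over the 8 arrays of the series, 1 array per group. They were chosen by name, as genes whose symbol in the annotated table equals a member, and all 39 were found among the 22365 genes measured. They have 65 probe sets in all. For the 15 genes with several, the brightest one on average was taken.

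The samples were adult C57Bl6 mouse liver RNA, amplified from small amounts. One array held whole liver of a wild type mouse. The other arrays held cells purified from livers of Col1a1-GFP transgenic mice, in which a collagen promoter drives green fluorescent protein: VitaminA+ hepatic stellate cells (HSC), VitaminA-GFP+ cells (read here as vitamin A negative and GFP positive) and GPM6A+ mesothelial cells (MC), all 3 with no injury named, portal fibroblasts (PF) after a sham operation, and HSC, PF and MC isolated from biliary fibrosis. All sorted groups share the Col1a1-GFP background, which the whole liver lacks. None of the sort criteria named in the labels is a leukocyte marker, no gate is named for PF, and how many animals gave each array is not stated. With 1 array per group there are no replicates, no p-value and no error of a difference can be given, and every difference below is between single arrays.

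Kupffer cells are the resident macrophages of the liver. They sit inside the sinusoids, clear particles and old red cells from portal blood, and carry receptors that few other cells have. When bile flow is blocked, monocytes and neutrophils enter the liver from blood and add to the resident macrophages, and all of these cells carry pan-leukocyte genes such as the phosphatase Ptprc (CD45).

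Values are log2 of the deposited intensity. The median over non-control probe sets lay between 5.31 and 5.68 on the 8 arrays and the 75th percentile between 7.63 and 8.03. A gene is called higher or lower when 2 arrays differ by at least 2 on the log2 scale (4-fold) and its level on the brighter of them reaches that array's median. Marker lists were checked against the labels. Stellate cell genes had 9 of 9 members at or above the 75th percentile on both HSC arrays, mesothelial genes 8 of 8 on both MC arrays, and portal fibroblast genes 9 of 10 in sham PF and 8 of 10 in PF of biliary fibrosis. VitaminA-GFP+ cells also had 8 of 8 mesothelial and 9 of 10 portal fibroblast genes at that level. Portal fibroblast genes also reached it for 7 of 10 in MC, and for 6 in MC and 5 in HSC of biliary fibrosis. Mesothelial genes did so for 6 of 8 in PF of biliary fibrosis, and stellate cell genes for 4 of 9 on both PF arrays. In whole liver and VitaminA-GFP+ cells 5 of 9 stellate cell genes reached it. The lists thus do not fully separate the fractions. The ratio of 3' to 5' Gapdh control probe sets was 1.42 to 2.01 for whole liver, HSC, VitaminA-GFP+ cells and MC, and 5.68 to 13.8 for the 4 arrays of sham PF and biliary fibrosis, so comparisons across these sets cross a difference in the control probe sets. The sample codes in the labels form 3 series: 1 holds these last 4 arrays, 1 holds whole liver, HSC and MC, and 1 holds VitaminA-GFP+ cells alone. Every comparison of VitaminA-GFP+ cells, and the HSC and MC fibrosis pairs, thus cross code series, whose meaning the labels do not give. In bulk samples fewer cells of a type and less RNA per cell cannot be told apart.

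The 39 genes split the 8 arrays into arrays rich and poor in macrophage and leukocyte RNA. Whole liver had 27 of the 39 at or above the 75th percentile of the array, HSC of biliary fibrosis 25 and VitaminA-GFP+ cells 23. MC of biliary fibrosis had 13, PF of biliary fibrosis 10, sham PF 3, and HSC and MC without stated injury 1 each. Over all genes this share was 33.8% to 35.6% on every array. Whole liver held the highest level for 17 of the 39 genes, HSC of biliary fibrosis for 10, VitaminA-GFP+ cells for 6, and the other arrays for 2 or none each.

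**Figure D1:**
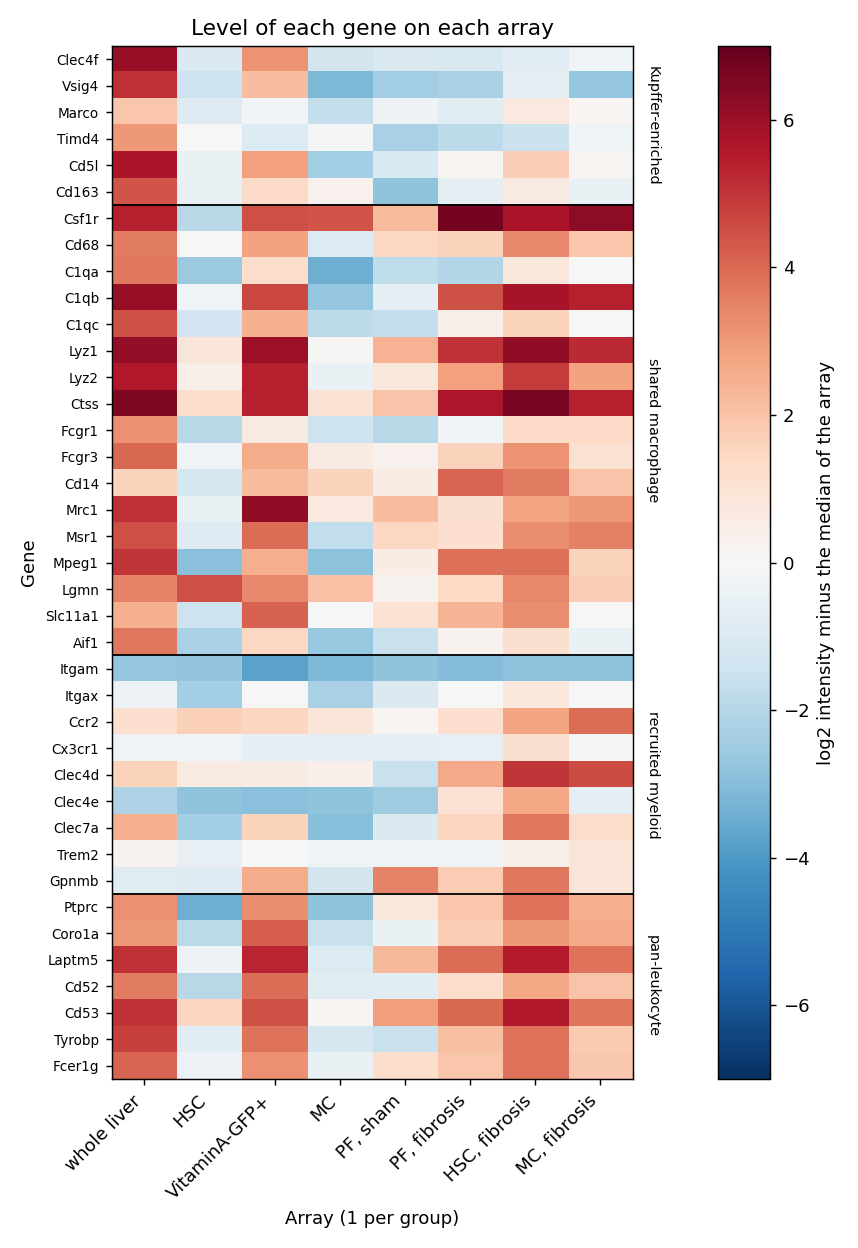
Level of each of the 39 genes (rows) on each of the 8 arrays (columns, 1 array per group), as log2 intensity minus the median of the array, red above and blue below. The Kupffer-enriched block is red mainly in whole liver and VitaminA-GFP+ cells, while the shared macrophage and pan-leukocyte blocks are also red in the 3 biliary fibrosis arrays.

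The 6 Kupffer-enriched genes were all highest in whole liver. Clec4f, a lectin that in mice is largely restricted to Kupffer cells, had a level of 11.41 in whole liver and 8.83 in VitaminA-GFP+ cells, 4.46 in HSC, 4.26 in MC, 4.46 in sham PF, 4.40 in PF of biliary fibrosis, 4.69 in HSC of biliary fibrosis and 5.05 in MC of biliary fibrosis. Only the first 2 of these arrays stood above their medians. Vsig4, a complement receptor of resident macrophages, followed the same order at the top, with 10.45 in whole liver, 7.82 in VitaminA-GFP+ cells, 3.99 in HSC, 2.38 in MC, 3.05 in sham PF, 3.22 in PF of biliary fibrosis, 4.76 in HSC of biliary fibrosis and 2.63 in MC of biliary fibrosis. Neither gene reached the array median on any biliary fibrosis array.

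Cd5l, a protein secreted by tissue macrophages, had levels of 11.04 in whole liver, 8.53 in VitaminA-GFP+ cells, 5.03 in HSC, 3.09 in MC, 4.38 in sham PF, 5.66 in PF of biliary fibrosis, 7.16 in HSC of biliary fibrosis and 5.47 in MC of biliary fibrosis. Unlike Clec4f and Vsig4, it was above the median on all 3 biliary fibrosis arrays. The haemoglobin scavenger receptor Cd163 was at 9.69 in whole liver and 7.02 in VitaminA-GFP+ cells, against 4.96 in HSC, 5.84 in MC, 2.61 in sham PF, 4.86 in PF of biliary fibrosis, 6.09 in HSC of biliary fibrosis and 4.87 in MC of biliary fibrosis. Timd4, which binds phosphatidylserine on dying cells and marks long-resident macrophages, was at 8.37 in whole liver and at 3.18 to 5.45 on the 7 sorted arrays, below the median on each. VitaminA-GFP+ cells, at 4.71 for Timd4, thus had Clec4f, Vsig4, Cd5l and Cd163 above the median without Timd4. The scavenger receptor Marco was at 7.25 in whole liver and 3.84 to 6.16 elsewhere. It stood above the median only in whole liver and in HSC (6.16) and MC (5.48) of biliary fibrosis.

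Promoters of 3 of these Kupffer-enriched genes and of Clec4d and Clec4e, neighbouring lectin genes that were high in biliary fibrosis (below), are printed to set genes of unlike pattern side by side. They come from RefSeq (GRCm38.p6), which had promoters of 33 of the 39 genes, and run from 250 bases before to 50 after the gene's start. Capitals mark the core GAGGAA, part of the site bound by the myeloid transcription factor PU.1 (Spi1), and its reverse complement TTCCTC, searched on both strands. Positions are counted from 0 at the annotated start.
Clec4f (chr6:83656067-83656366, minus strand): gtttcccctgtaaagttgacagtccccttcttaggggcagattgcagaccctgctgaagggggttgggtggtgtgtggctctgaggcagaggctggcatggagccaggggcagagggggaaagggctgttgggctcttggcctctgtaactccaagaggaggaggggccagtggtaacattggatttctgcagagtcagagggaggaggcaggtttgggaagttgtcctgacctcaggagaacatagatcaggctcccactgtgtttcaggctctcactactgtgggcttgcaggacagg
Vsig4 (chrX:96293389-96293688, minus strand): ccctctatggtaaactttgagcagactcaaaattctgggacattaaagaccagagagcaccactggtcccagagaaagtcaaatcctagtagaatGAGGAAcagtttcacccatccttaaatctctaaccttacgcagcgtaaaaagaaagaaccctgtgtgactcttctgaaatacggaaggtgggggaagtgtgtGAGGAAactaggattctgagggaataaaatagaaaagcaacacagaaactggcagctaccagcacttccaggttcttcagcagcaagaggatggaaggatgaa
Cd5l (chr3:87357631-87357930, plus strand): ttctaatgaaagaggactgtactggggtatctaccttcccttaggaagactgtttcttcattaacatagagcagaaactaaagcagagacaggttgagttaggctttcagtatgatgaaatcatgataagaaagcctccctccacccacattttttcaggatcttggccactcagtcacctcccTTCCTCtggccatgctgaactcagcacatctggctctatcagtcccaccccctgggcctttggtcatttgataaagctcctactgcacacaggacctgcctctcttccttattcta
Clec4d (chr6:123261857-123262156, plus strand): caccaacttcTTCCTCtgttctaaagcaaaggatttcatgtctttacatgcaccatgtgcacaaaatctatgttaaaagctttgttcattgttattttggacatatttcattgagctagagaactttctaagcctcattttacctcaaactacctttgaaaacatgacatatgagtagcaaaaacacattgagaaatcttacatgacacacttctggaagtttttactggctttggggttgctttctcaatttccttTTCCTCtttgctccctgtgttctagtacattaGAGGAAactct
Clec4e (chr6:123289822-123290121, minus strand): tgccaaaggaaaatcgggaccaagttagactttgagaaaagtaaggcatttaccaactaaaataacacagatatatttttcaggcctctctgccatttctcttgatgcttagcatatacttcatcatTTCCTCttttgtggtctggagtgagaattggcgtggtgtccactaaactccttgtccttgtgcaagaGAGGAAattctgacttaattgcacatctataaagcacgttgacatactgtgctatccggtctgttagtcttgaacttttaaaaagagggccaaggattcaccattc
The motif was found at -155 and -53 in Vsig4, at -66 in Cd5l (as TTCCTC), at 39, -240 and 7 in Clec4d (the last 2 as TTCCTC), and at -56 and -123 in Clec4e (the last as TTCCTC). Clec4f had no match in this window. Of the 38 promoters of members 22 held the motif (57.9%), against 28.3% of all 32851 promoters in the table. A match is a string of letters and shows no binding.

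The shared macrophage genes were low in HSC and MC without stated injury, where only Lgmn in HSC and Csf1r in MC reached the 75th percentile. Against whole liver, 30 of the 39 genes were lower in HSC (10.9% of all genes) and none higher (9.71% of all genes), with a median difference of -4.79 against -0.04 over all genes. In MC 28 of 39 were lower (11.2% of all genes) and none higher (9.78%), with a median of -4.39 against -0.03. These 2 comparisons share the whole liver array. Other cell types were lower too: hepatocyte genes in 10 of 10 in both (medians -5.58 in HSC and -9.15 in MC), and sinusoidal endothelial genes in 11 of 12 in HSC and 9 of 12 in MC, with 1 higher in MC. By group, the HSC array had 6 of 6 Kupffer-enriched, 16 of 17 shared macrophage, 1 of 9 recruited myeloid and 7 of 7 pan-leukocyte genes lower, and MC had 6, 14, 1 and 7. The pore-forming Mpeg1 differed most in HSC (-7.77) and the complement subunit C1qb in MC (-8.60).

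Lgmn, a lysosomal protease, went against the rest in HSC. Its levels were 8.79 in whole liver, 10.001 in HSC, 9.02 in VitaminA-GFP+ cells, 7.55 in MC, 5.70 in sham PF, 6.86 in PF of biliary fibrosis, 8.82 in HSC of biliary fibrosis and 7.09 in MC of biliary fibrosis. It was above the median on every array and highest in HSC, where only 7 of the 39 genes reached the median. Csf1r, the receptor for the macrophage growth factors Csf1 and Il34, had levels of 10.77 in whole liver, 3.52 in HSC, 10.20 in VitaminA-GFP+ cells, 9.90 in MC, 7.67 in sham PF, 12.20 in PF of biliary fibrosis, 11.18 in HSC of biliary fibrosis and 11.63 in MC of biliary fibrosis. MC without stated injury therefore differed by -0.86 from whole liver for Csf1r, while on the same array C1qa was at 2.13, C1qb at 2.79, C1qc at 3.67, Mpeg1 at 2.63 and Ptprc at 2.70. Cd14, a lipopolysaccharide co-receptor, was likewise as high in MC (7.07) as in whole liver (6.87). All 3 probe sets of Csf1r were above the median in MC, at 9.90, 7.39 and 6.19.

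Genes for the ligands of Csf1r followed another order than the receptor. Csf1 was higher by 2.60 in HSC and by 2.61 in MC than in whole liver. Il34 was at 9.11 in HSC, 6.72 in VitaminA-GFP+ cells and 7.34 in HSC of biliary fibrosis, and at 3.40 to 5.84 on the other 5 arrays. Csf2, a further gene of the macrophage growth factor list and not a ligand of Csf1r, lay below the median on every array, at 3.66 to 5.25.

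VitaminA-GFP+ cells carried macrophage and leukocyte genes at levels near those of whole liver, and Kupffer-enriched genes at lower ones. Against HSC, 29 of 39 genes were higher (7.03% of all genes) and none lower (4.28%), with a median difference of 3.82 against -0.07 over all genes. Against MC, 26 of 39 were higher (6.53% of all genes) and none lower (4.33%), with a median of 4.31 against -0.04. Both use the same VitaminA-GFP+ array. Against whole liver only 2 of 39 were higher (10.9% of all genes), Gpnmb and the phagosomal metal transporter Slc11a1, and 8 lower (7.30%), with a median of -0.49 against -0.20.

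The 4 gene groups differed within that comparison. Kupffer-enriched genes differed from whole liver by -1.77 to -3.66, 5 of 6 past the 4-fold rule, with a median of -2.60. Shared macrophage genes had a median of -0.56, and C1qa (-2.11), the IgG receptor Fcgr1 (-2.20) and Mpeg1 (-2.10) were called lower. Pan-leukocyte genes lay between -0.63 and 1.46, with a median of 0.40 and none of 7 past the rule. The ranges of the Kupffer-enriched and pan-leukocyte groups did not overlap, but shared macrophage genes ran from -2.20 to 2.04 and overlapped both. How often such small groups of genes lie apart over all genes was not computed.

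Ptprc, the pan-leukocyte phosphatase, had levels of 8.52 in whole liver, 8.93 in VitaminA-GFP+ cells, 2.06 in HSC, 2.70 in MC, 6.24 in sham PF, 7.44 in PF of biliary fibrosis, 9.27 in HSC of biliary fibrosis and 7.92 in MC of biliary fibrosis. Its other probe set ran from 3.44 to 6.07 with its highest value in HSC. Coro1a, an actin regulator of leukocytes, was at 8.39 in whole liver, 9.85 in VitaminA-GFP+ cells, 3.60 in HSC, 3.98 in MC, 4.97 in sham PF, 7.18 in PF of biliary fibrosis, 8.47 in HSC of biliary fibrosis and 8.0 in MC of biliary fibrosis. Another Coro1a probe set was at 5.04 in MC of biliary fibrosis, below the median. Cd52, a surface glycoprotein of lymphocytes and macrophages, reached 9.61 in VitaminA-GFP+ cells against 8.94 in whole liver. All 3 genes were higher in VitaminA-GFP+ cells than in whole liver, by less than 4-fold.

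Lymphocyte genes moved with them on the VitaminA-GFP+ array. Of 11 T and NK cell genes 8 were called higher than in HSC and 8 higher than in MC, including Cd3d (4.05 and 4.54) and Gzma (4.39 and 3.59), and of 7 B cell genes 4 were higher than in HSC and 2 higher than in MC. Summed intensity of the T and NK list was 1578 on this array, 1004 in whole liver and 183 to 378 on the other 6. Their part in the pan-leukocyte levels was not tested.

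Sinusoidal endothelial genes were higher still on the same array. Summed intensity of 12 such genes was 35491 there, 6528 in whole liver and 1079 to 2618 on the other 6, and 9 of 12 were called higher than in whole liver. Mrc1, a mannose receptor carried by sinusoidal endothelium as well as macrophages, had levels of 10.42 in whole liver, 4.93 in HSC, 11.90 in VitaminA-GFP+ cells, 6.21 in MC, 7.62 in sham PF, 6.57 in PF of biliary fibrosis, 8.20 in HSC of biliary fibrosis and 8.41 in MC of biliary fibrosis. Its highest array was thus the one on which Stab2 (12.03), an endothelial scavenger receptor, was highest. The part of endothelial RNA in the Mrc1 level was not tested.

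**Figure D2:**
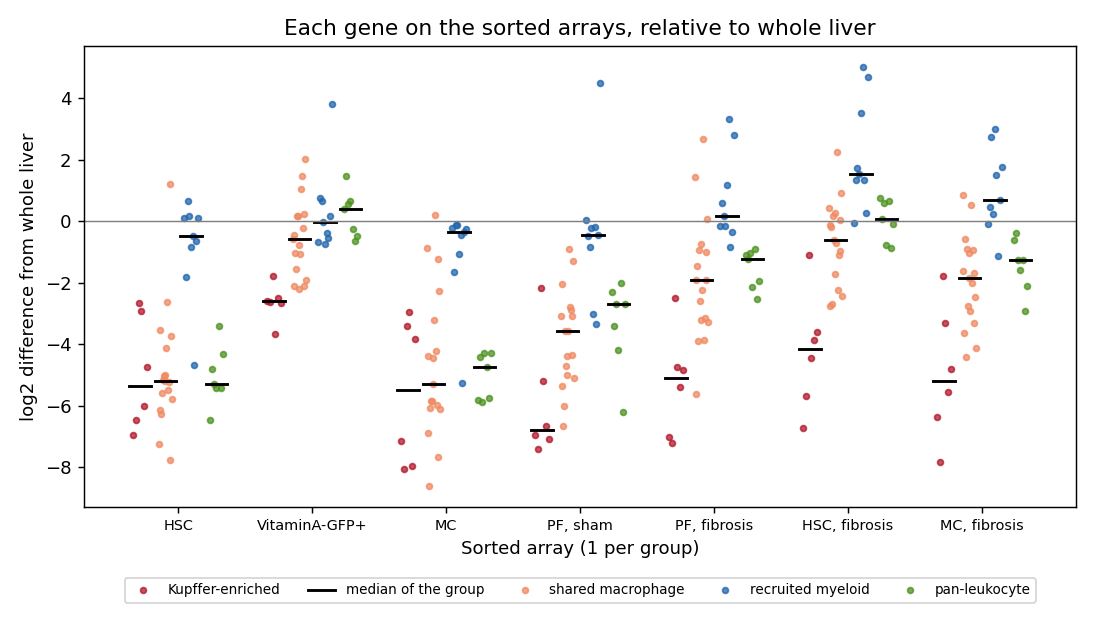
Log2 difference of each gene from whole liver (y axis) on the 7 sorted arrays (x axis, 1 array per group), by gene group (colours), with the median of each group as a bar. Kupffer-enriched genes lie below whole liver on every sorted array, while the pan-leukocyte median is near 0 in VitaminA-GFP+ cells (0.40) and HSC of biliary fibrosis (0.07).

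Sham PF held far less of these genes than VitaminA-GFP+ cells, although both arrays had 9 of 10 portal fibroblast genes at or above the 75th percentile. Of the 39 genes 27 were lower in sham PF (4.81% of all genes) and none higher (1.99%), with a median of -2.80 against 0.15 over all genes. C1qb (-5.60), the adaptor Tyrobp (-5.57), Coro1a (-4.88), Lyz2 (-4.88) and Cd52 (-4.87) differed most. Sinusoidal endothelial genes were lower as well, 12 of 12 called with a median of -4.56, and so were 7 of 11 T and NK cell genes. Gpnmb, a lysosomal glycoprotein of lipid-laden macrophages that other cell types also make, was not lower: it had levels of 4.45 in whole liver, 4.55 in HSC, 8.26 in VitaminA-GFP+ cells, 4.21 in MC, 8.93 in sham PF, 7.24 in PF of biliary fibrosis, 9.16 in HSC of biliary fibrosis and 6.22 in MC of biliary fibrosis. It was low in whole liver, where the Kupffer-enriched genes were highest.

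Against the control array of the same fraction, many macrophage and leukocyte genes were higher on each of the 3 biliary fibrosis arrays, most of them in HSC. In PF 14 of 39 genes were higher (3.62% of all genes) and none lower (1.74%), with a median difference of 1.33 against -0.01 over all genes. In HSC 29 of 39 were higher (5.66%) and none lower (4.63%), with a median of 4.07 against 0.10. In MC 23 of 39 were higher (5.93%) and none lower (6.06%), with a median of 2.20 against 0.21. Of the 39 genes 10 were called higher in all 3 pairs and 16 in exactly 2, against 0.393% and 2.50% of all genes. The counts depend on the minimum level and the baseline. With the 75th percentile as minimum level 8 genes were higher in PF and 12 in MC. Against sham PF, a baseline chosen after seeing the data, 11 were higher and 1 lower in MC. Against VitaminA-GFP+ cells, 2 were higher and 12 lower in PF of biliary fibrosis, with a median of -1.19. Shares over all genes were not computed for these other minimum levels and baselines. Only the PF pair has a sham array. The HSC and MC pairs cross the difference in Gapdh ends given above, and HSC and MC were not compared with a sham array of their own.

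The groups moved unevenly. Pan-leukocyte genes were called higher in 7 of 7 in HSC, 7 of 7 in MC and 3 of 7 in PF (Tyrobp 3.67, Coro1a 2.20, Cd52 2.05), with medians of 4.64, 3.50 and 1.66. Shared macrophage genes were called in 16, 10 and 8 of 17, with medians of 4.12, 2.60 and 1.83. Recruited myeloid genes were called in 5, 5 and 3 of 9. Kupffer-enriched genes were called in 1, 1 and 0 of 6, the 1 being Cd5l (2.14 in HSC and 2.39 in MC), with medians of 0.94, 0.52 and 0.32. Clec4f differed by 0.23, 0.78 and -0.06 in HSC, MC and PF. Some pan-leukocyte calls depend on the probe set. In MC another probe set of Coro1a differed by 0.97, with both arrays below their medians, and another of Laptm5 by 1.74. The other Ptprc probe set differed by -1.69 in HSC and -0.88 in MC.

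**Figure D3:**
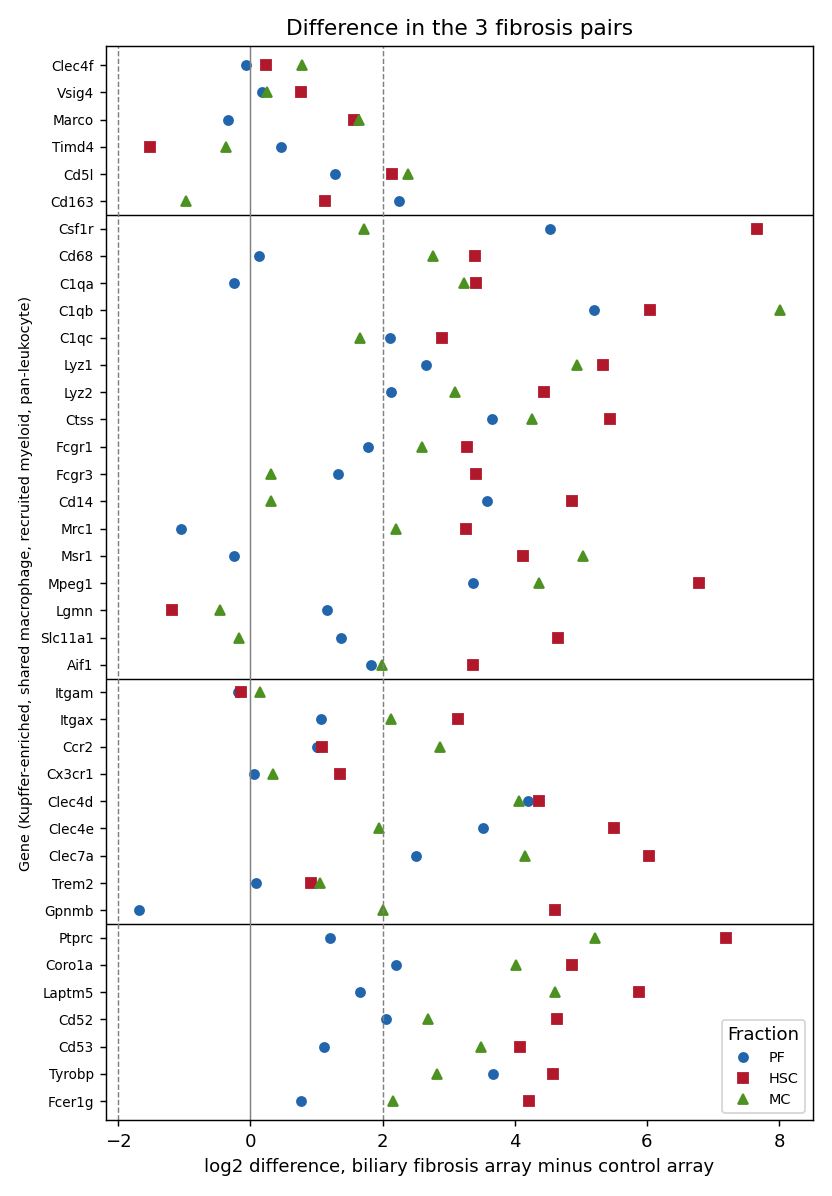
Log2 difference of each of the 39 genes (y axis) between the biliary fibrosis array and the control array of the same fraction (x axis), for PF, HSC and MC (1 array on each side), with dashed lines at the 4-fold rule. Kupffer-enriched genes at the top lie between -1.52 and 2.39, while most shared macrophage and pan-leukocyte genes lie to the right of 0, farthest for HSC. Of the Kupffer-enriched genes, Cd5l in HSC and MC and Cd163 in PF (2.25) pass the upper line, Cd163 with both PF arrays below their medians.

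Among shared macrophage genes, Ctss, a lysosomal protease of antigen-presenting cells, was called higher in all 3 pairs. Its levels were 11.86 in whole liver, 6.68 in HSC, 11.11 in VitaminA-GFP+ cells, 6.56 in MC, 7.47 in sham PF, 11.12 in PF of biliary fibrosis, 12.12 in HSC of biliary fibrosis and 10.82 in MC of biliary fibrosis. The biliary fibrosis arrays overlapped whole liver and VitaminA-GFP+ cells in level, and were higher than their controls by 3.65 in PF, 5.44 in HSC and 4.26 in MC. Mpeg1 was at 10.31 in whole liver, 2.54 in HSC, 8.21 in VitaminA-GFP+ cells, 2.63 in MC, 5.96 in sham PF, 9.32 in PF of biliary fibrosis, 9.33 in HSC of biliary fibrosis and 7.0 in MC of biliary fibrosis. It differed by 3.36, 6.79 and 4.37 in PF, HSC and MC.

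Csf1r differed by 4.54 in PF and 7.66 in HSC, and by 1.72 in MC, where the control array was already at 9.90. By this probe set and 1 other, its level on the PF array of biliary fibrosis was the highest of the 8. By the third, whole liver was highest (7.91) and PF of biliary fibrosis (6.92) lay below HSC (7.36) and MC (7.08) of biliary fibrosis. Cd14 had levels of 5.96 in sham PF and 9.54 in PF of biliary fibrosis, 4.24 and 9.11 in HSC, and 7.07 and 7.38 in MC, so it too was higher in PF and HSC by more than 4-fold and alike on both MC arrays. The probe sets of Csf1r ranged from 3.06 to 7.66 in the HSC pair and from 1.82 to 4.54 in the PF pair. The scavenger receptor Msr1 was at 6.92 in sham PF and 6.67 in PF of biliary fibrosis, 4.59 and 8.71 in HSC, and 3.82 and 8.86 in MC. It differed by 4.12 in HSC and 5.04 in MC by this probe set. Other probe sets that reached the median in the pair differed by as little as 0.34 in HSC and 0.73 in MC. Another Msr1 probe set, below the median on both MC arrays, differed by 0.17.

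The 3 subunits of complement C1q, which macrophages make together and whose genes lie side by side on chromosome 4, did not give 1 picture. C1qb had levels of 11.39 in whole liver, 5.14 in HSC, 10.36 in VitaminA-GFP+ cells, 2.79 in MC, 4.75 in sham PF, 9.95 in PF of biliary fibrosis, 11.19 in HSC of biliary fibrosis and 10.82 in MC of biliary fibrosis. C1qa had levels of 9.01, 2.85, 6.89, 2.13, 3.66, 3.40, 6.26 and 5.36 on the same arrays in the same order. C1qb thus differed from whole liver by -1.45 in PF, -0.20 in HSC and -0.58 in MC of biliary fibrosis, where C1qa differed by -2.75 to -5.61.

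C1qc, at 9.75 in whole liver, 5.85 in PF, 7.05 in HSC and 5.33 in MC of biliary fibrosis, differed from it by -2.70 to -4.42. The third probe set of C1qb, the only one without a suffix, was at 9.08 in whole liver, 6.10 in PF, 6.67 in HSC and 5.15 in MC of biliary fibrosis, and so differed from whole liver by -2.41 to -3.93, nearer to C1qa and C1qc. In VitaminA-GFP+ cells the 3 C1qb probe sets differed from whole liver by -1.04 to -1.85. Probe sets of C1qb therefore disagree on the biliary fibrosis arrays by more than in VitaminA-GFP+ cells, and these arrays also have the higher Gapdh 3' to 5' ratios. Their part in this was not tested.

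**Figure D4:**
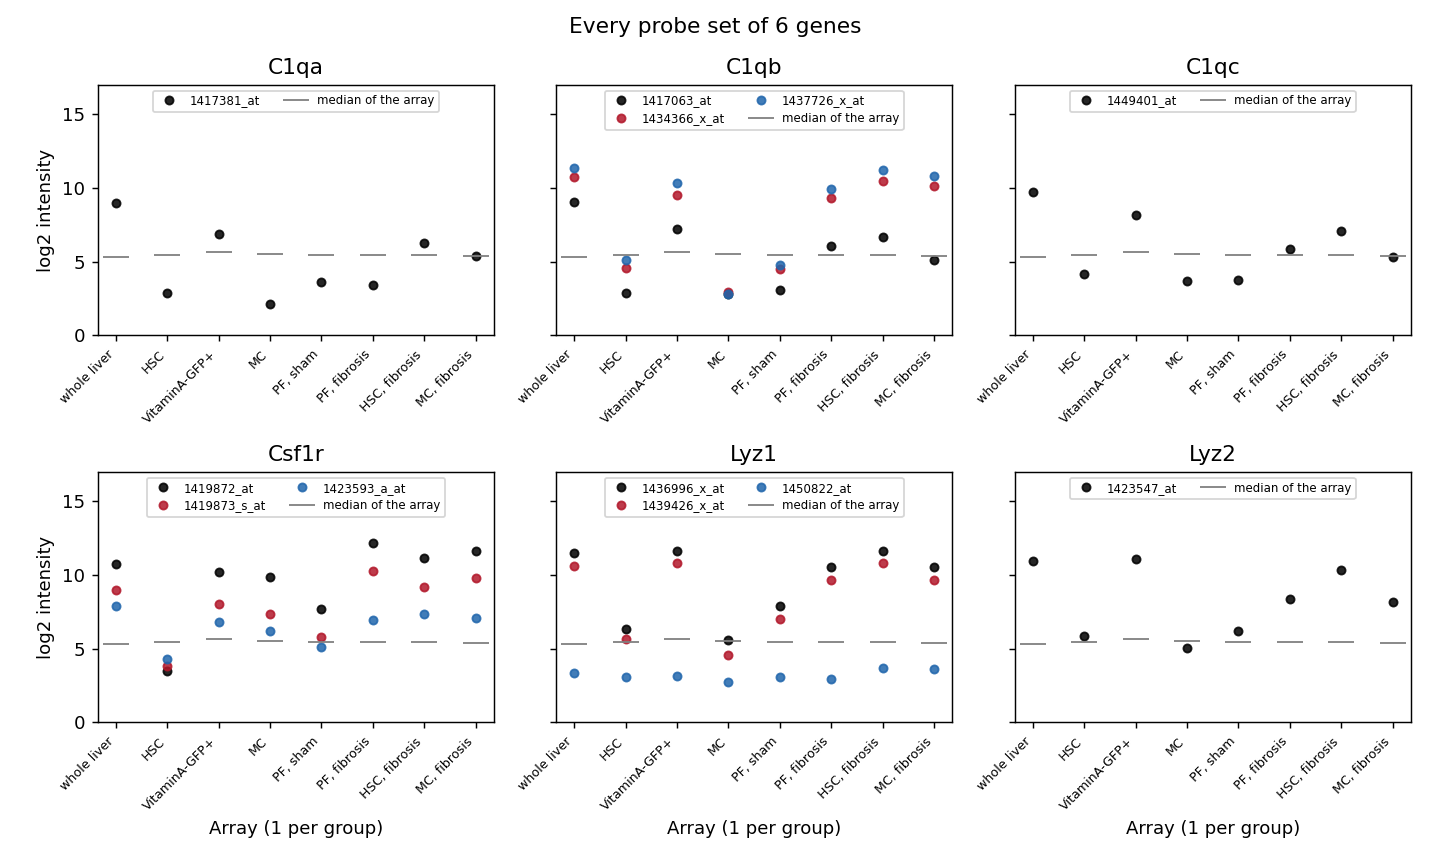
Log2 intensity (y axis) of every probe set of C1qa, C1qb, C1qc, Csf1r, Lyz1 and Lyz2 on the 8 arrays (x axis, 1 array per group), with the array median as a grey bar. On the biliary fibrosis arrays 1 probe set of C1qb lies near those of C1qa and C1qc and the other 2 lie higher, and 1 probe set of Lyz1 is flat below the median.

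Lyz1 and Lyz2 are closely similar lysozyme genes next to each other on chromosome 10, and how far their probe sets share signal was not tested. Lyz2 had levels of 10.94 in whole liver, 5.89 in HSC, 11.10 in VitaminA-GFP+ cells, 5.08 in MC, 6.22 in sham PF, 8.35 in PF of biliary fibrosis, 10.34 in HSC of biliary fibrosis and 8.19 in MC of biliary fibrosis. Lyz1 by its brightest probe set, whose suffix marks probes that may match other transcripts, was at 11.49 in whole liver and differed by 2.65 in PF, 5.33 in HSC and 4.94 in MC. The Lyz1 probe set without such a suffix was at 2.74 to 3.66 on all 8 arrays, below the median on each. The Lyz1 values are uncertain for that reason.

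Of the 9 recruited myeloid genes, those called higher in the fibrosis pairs included Clec4d, Clec4e and Clec7a, and several others were too dim to read. Clec4d, a lectin that activates myeloid cells through an immunoreceptor adaptor, had levels of 6.94 in whole liver, 6.09 in HSC, 6.20 in VitaminA-GFP+ cells, 5.87 in MC, 3.91 in sham PF, 8.11 in PF of biliary fibrosis, 10.45 in HSC of biliary fibrosis and 9.94 in MC of biliary fibrosis. Clec4e, its neighbour on chromosome 6 and a receptor for dying cells and mycobacterial lipid, had levels of 3.16 in whole liver, 2.67 in HSC, 2.77 in VitaminA-GFP+ cells, 2.72 in MC, 2.97 in sham PF, 6.48 in PF of biliary fibrosis, 8.17 in HSC of biliary fibrosis and 4.67 in MC of biliary fibrosis. Both genes were higher on all 3 biliary fibrosis arrays than on their controls, Clec4d by 4.20, 4.36 and 4.07 in PF, HSC and MC and Clec4e by 3.52, 5.51 and 1.95, the last with both MC arrays below their medians.

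Unlike the Kupffer-enriched genes, Clec4d and Clec4e were higher on the HSC array of biliary fibrosis than in whole liver, by 3.51 and 5.02. Clec7a, the beta-glucan receptor, was at 7.79 in whole liver, 3.10 in HSC, 7.26 in VitaminA-GFP+ cells, 2.52 in MC, 4.46 in sham PF, 6.97 in PF of biliary fibrosis, 9.13 in HSC of biliary fibrosis and 6.67 in MC of biliary fibrosis. It was called higher in all 3 pairs, as Clec4d was. The chemokine receptor Ccr2, which guides monocytes out of bone marrow, was at 5.66 to 7.16 on whole liver, HSC, VitaminA-GFP+ cells, MC and sham PF and at 6.67 in PF, 8.23 in HSC and 9.24 in MC of biliary fibrosis, with only the MC pair (2.87) past the rule. Its other probe sets were at 2.30 to 4.76, below the median on every array, so its presence on each array rests on the probe set used. In the MC pair they differed by 1.18 to 2.32. The integrin Itgax was at 6.26 in HSC of biliary fibrosis and at 3.11 to 5.68 elsewhere.

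The integrin Itgam, present on most monocytes and neutrophils, was at 1.94 to 2.71 on all 8 arrays by its only probe set, whole liver included, so nothing can be read from it. The fractalkine receptor Cx3cr1 lay below the median on every array but HSC of biliary fibrosis (6.56). Trem2, a lipid receptor of macrophages in scarred liver, ranged from 4.91 to 6.28 and was not called in any pair. Gpnmb was higher in HSC (4.60) and MC (2.01) of biliary fibrosis but lower by less than 4-fold in PF (-1.69).

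HSC of biliary fibrosis had the highest levels of most macrophage and leukocyte genes among the 3 fibrotic arrays. It had the highest level of the 3 for 31 of the 39 genes, MC for 6 and PF for 2 (Cd14 and, by the probe set used, Csf1r), against 29.8%, 43.6% and 26.6% of all genes. Against PF of biliary fibrosis 4 of 39 were higher (1.92% of all genes), C1qa (2.86), Clec4d (2.34), Clec7a (2.17) and Msr1 (2.04), and none lower (3.94%), with a median of 1.51. Against MC of biliary fibrosis 9 of 39 were higher (5.51% of all genes) and none lower (4.05%), with a median of 1.30 against -0.15 over all genes. Clec4e (3.51), Slc11a1 (3.37), Gpnmb (2.93), Clec7a (2.46), Mpeg1 (2.33), the IgG receptor Fcgr3 (2.20), Lyz2 (2.15), Tyrobp (2.06) and the Fc receptor gamma chain Fcer1g (2.02) were the 9. With quantile normalization anew 5 genes were called in place of 9, and no share over all genes was computed for that setting. These comparisons share the HSC array, whose Gapdh ratio (5.68) was the lowest of the 3, against 10.2 for PF and 13.8 for MC. Hepatocyte genes were also higher on it, 3 of 10 against PF (median 0.63) and 10 of 10 against MC (median 4.43). Their part in these differences was not tested.

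By the probe sets used, the pan-leukocyte genes on that array lay between -0.86 and 0.74 of whole liver. The Kupffer-enriched genes lay between -6.72 and -1.09, and these ranges did not overlap. Shared macrophage genes ran from -2.75 to 2.24 and overlapped both groups. The separation depends on the probe set. Another probe set of Laptm5, above the median on both arrays, differed from whole liver by -1.12, within the Kupffer-enriched range. Its other probe sets differed by -0.13 to 0.58. By the probe set used Laptm5, a lysosomal membrane protein of blood cells, was at 11.004 on the HSC array of biliary fibrosis and 10.43 in whole liver. The tetraspanin Cd53 was at 11.05 and 10.39. Tyrobp was at 9.24 and 10.10, Fcer1g at 9.26 and 9.36, and the lysosomal glycoprotein Cd68 at 8.82 and 8.95. Aif1, an actin-binding protein of activated macrophages, was at 6.58 and 9.01, a difference of -2.43.

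Other blood cell lists moved unevenly in the fibrosis pairs. Over all genes 5.66%, 5.93% and 3.62% were called higher in HSC, MC and PF. Among 8 monocyte genes, Chil3 was higher by 7.12 in HSC, 6.20 in MC and 4.34 in PF, and the transglutaminase chain F13a1 by 3.86 in HSC and 3.11 in PF. The list's medians were 1.67 in HSC, 1.04 in MC and 0.47 in PF, with 3, 1 and 2 called. The third called in HSC was Vcan (3.44), whose highest level was in sham PF (10.33). Of the 8 genes 7 lay above the control in HSC, 5 in MC and 5 in PF. Plac8 lay below it in all 3 pairs (-1.20 in HSC, -1.59 in MC and -1.33 in PF), and F13a1 in MC (-0.72). Of 8 neutrophil genes S100a8 (3.54) and S100a9 (2.19) were higher in HSC and S100a9 (2.56) in MC, where Cxcr2 was lower (-2.86), and none was called in PF. T and NK cell genes had medians of 0.55 in HSC, 0.32 in MC and 0.06 in PF with 1, 1 and 0 of 11 called. B cell genes had 1 of 7 called in each pair, Blnk each time, which macrophages also express, and dendritic cell genes none of 7. Lymphocyte lists thus had fewer calls in the fibrosis pairs than between VitaminA-GFP+ cells and HSC, a difference that was not tested.

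Macrophage transcription factors had no common direction, with medians of -0.32, -0.84 and -0.59 in HSC, MC and PF. Spi1 (PU.1) was higher in MC by 2.06, Runx1 in HSC by 2.55, and Zeb2 in MC by 2.79, and Id3, a Kupffer cell identity factor that many other cells also express, was lower in MC by 2.97. Of 9 genes of scar-associated macrophages 3, 3 and 2 were called higher in HSC, MC and PF, and 0, 2 and 0 lower. The galectin Lgals3 was higher in HSC (7.16), MC (2.66) and PF (2.03) and osteopontin, Spp1, by 8.07, 3.72 and 5.05. Both are also made by other cells of the injured liver. Fatty acid binding protein Fabp5 was higher in HSC (2.75) and the lipase Lpl in MC (3.36), while the tetraspanin Cd9 (-2.47) and Apoe (-2.17) were lower in MC, and Apoe was also below its control in HSC (-1.73) and PF (-1.17). The list's medians were 0.71, -0.51 and 0.25.

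Markers of further cell types also moved in these pairs. Hepatocyte genes had medians of 2.24 in HSC, 1.95 in MC and 4.17 in PF (7, 4 and 8 of 10 called higher, 1 lower in PF), cholangiocyte genes 2.60, 0.32 and 4.88 (6, 2 and 7 of 8 higher, Krt19 lower in MC), and sinusoidal endothelial genes 1.21, 1.92 and -0.05 (3, 5 and 0 of 12 higher, Kdr lower in MC and Dnase1l3 in PF). The sinusoidal endothelial genes called in HSC were Stab1 (3.95), Lyve1 (2.26) and Fcgr2b (2.08). Pecam1 (0.43), Kdr (0.28) and Emcn (0.25) differed little there, and Clec4g lay below its control (-1.92). Whether macrophages gave part of the sinusoidal endothelial signal was not tested. Portal fibroblast genes had medians of 4.04, -0.66 and -0.63, stellate cell genes -0.53, 0.92 and -1.40, and mesothelial genes 0.71, -0.99 and 2.61. Some lists share genes, so their results are not separate. Krt19, at 13.29 in MC without stated injury, is in both the cholangiocyte and the mesothelial list. Spp1, called higher in each pair, is in both the cholangiocyte and the scar-associated macrophage list. The macrophage and leukocyte genes were thus not the only ones of another cell type on the biliary fibrosis arrays, and what share of each array came from such cells was not tested.

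Genes outside the lists were ranked by likeness to 2 groups, among 3101 genes with a wide range. Pearson correlation was taken over the 8 arrays, which share a platform and include 1 whole tissue, and is given as a description. Most like the pan-leukocyte genes were the leukocyte integrin chain Itgb2 (r = 0.97), the kinase Prkcb (0.96), the IgG receptor Fcgr4 (0.93), the complement receptor C5ar1 (0.92), Wfdc17, Srgn, Fgd6, Sla, Plek and Ear2 (0.89 to 0.91). Most like the Kupffer-enriched genes were Msrb1 (0.99), Fabp7, Msra, Pilra, Pex16, Mcrip2, Ddt, Cd300a, Mrpl12 and Ugt2b5 (0.96 to 0.98). The second set follows whole liver, which was highest for all 10, and hepatocytes make some of these genes, such as Ugt2b5.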

How the data were processed

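Intensity values of Affymetrix Mouse Genome 430 2.0 arrays, 1 per sample, were deposited by the authors. The submitters' processing notes name RMA and Partek. Versions, and whether all 8 arrays were normalized together, are not given in the sources used here. The values are on the linear scale, and log2 was taken here. Values did not differ between the 2 deposited tables (largest difference 0). Of 45101 probe sets 64 are controls. Symbols were split where a probe set names several genes and updated through gene identifiers against RefSeq, giving 22365 genes, each represented by its probe set with the highest mean.

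A 4-fold rule with the array median as minimum level made the calls, over all genes. It was tested on simulated data. There are no replicates, so precision is unknown, and no test, p-value or error was computed. All 39 members are named. From the other 14 lists a gene could be named if called in a comparison or among its 3 largest differences, and only some of these are named. Outside the lists the 10 genes most like each of 2 groups are named. Cd63, Ly6g, Retnlg, Clec9a and Trac of these lists were not measured. The members and lists were chosen with earlier results of these data known. Other scalings, minimum levels, probe set rules, a 2-fold rule and other baseline arrays were tried. Python 3.11.15, numpy 2.4.6, pandas 2.3.3 and matplotlib 3.10.9 were used.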

Additional observations from a re-analysis of the deposited data

Results flagged for a closer look

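For 3 of the 39 genes the biliary fibrosis array lay above its control in 1 fraction and below it in another, by at least 1 on the log2 scale each way, and the difference between fractions was not tested. Mrc1 differed by 3.27 in HSC and 2.20 in MC but by -1.05 in PF. Lgmn differed by 1.17 in PF and -1.18 in HSC. Gpnmb differed by 4.60 in HSC and 2.01 in MC but by -1.69 in PF, and its 2 probe sets in MC went from -0.96 to 2.01.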

How the results depend on the processing

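Of 279 recomputed counts and medians of the 39 genes, 248 stayed within 1.5 times the count or 0.5 of the median. Some of these could not move: a change of only the fold rule or the minimum level leaves every median as it was. The number that stayed is thus no measure of stability. Under a 2-fold rule 24 genes were higher and 2 lower in the PF pair, 1 lower in the HSC pair, 5 higher and 13 lower in VitaminA-GFP+ cells than in whole liver, 1 higher in HSC than in whole liver, 27 higher and 1 lower in HSC than in PF of biliary fibrosis, and 22 higher and 1 lower than in MC of biliary fibrosis. With the 75th percentile as minimum level 8 were higher in the PF pair and 12 in the MC pair. With arrays shifted to the same median, 1 was higher in VitaminA-GFP+ cells than in whole liver, and with quantile normalization anew 5 were higher in HSC than in MC of biliary fibrosis. Shares over all genes were not computed in these settings, so the counts cannot be read as particular to the 39 genes.

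With the mean of probe sets the median was 3.27 in the HSC pair, -3.74 in HSC and -3.22 in MC against whole liver, and 3.74 in VitaminA-GFP+ cells against MC. With only probe sets without suffix (37 genes) these were 3.28, -4.12, -3.84 and 3.79 in the same order. In that setting called genes changed sign. Lyz1 was at -0.17 in the PF pair. Ptprc was at -1.69 in the HSC pair, -0.88 in the MC pair, -0.12 in VitaminA-GFP+ cells against HSC, and 1.63 in HSC and 0.25 in MC against whole liver. Laptm5 was at -0.42 in the MC pair, -0.43 and -0.45 in VitaminA-GFP+ cells against HSC and MC, 0.22 in sham PF against VitaminA-GFP+ cells, and 0.046 in HSC and 0.073 in MC against whole liver. The Lyz1 and Laptm5 probe sets of this setting were below the median on every array. Otherwise the cause was not tested.

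The PF result depended on the baseline. Set against VitaminA-GFP+ cells instead of sham PF, 2 genes were higher and 12 lower in PF of biliary fibrosis and the median was -1.19, with C1qb at -0.41, C1qc -2.34, Lyz1 -1.09, Lyz2 -2.75, Clec7a -0.29, Coro1a -2.68, Cd52 -2.82 and Tyrobp -1.90. These genes were listed because their sign changed, so by that selection they were lower in sham PF and higher in VitaminA-GFP+ cells. VitaminA-GFP+ cells are another fraction than PF and not a sham control. Summed intensity of sinusoidal endothelial genes was 35491 there against 1587 in sham PF. With the difference between sham PF and VitaminA-GFP+ cells subtracted, medians were 6.58 for HSC and 5.21 for MC. With sham PF as baseline, a setting chosen after seeing the data, the median was 2.87 in HSC, and in MC it was 1.44, with 11 genes higher and 1 lower, Gpnmb (-2.71). For these baselines too, shares over all genes were not computed. No paired analysis was possible because each group has 1 array. Without replicates the data cannot show how far 2 arrays of 1 group would differ.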
